A study of Homo sapiens with 15 samples.

Results

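The genes described here are 10 regulators of the integrated stress response, the 5 transcription factors ATF4, ATF3, ATF5, CEBPB and DDIT3, the chromatin-associated stress protein NUPR1, and the 4 effector or feedback genes TRIB3, CHAC1, DDIT4 and SESN2. They were taken from the deposited table by gene symbol, and each of the 10 symbols had 1 row among the 25737 listed. All 10 were within the 12870 genes tested, the upper 50% of the table by mean level. The genes were chosen by known role, with the counts of these same libraries in the 5 groups already examined, so their levels and differences between groups are a description without p-values. Counts of calls among them, given below for scale, are no test of them.

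The data came from U87MG, an established human glioblastoma line grown in serum, 24 h after lentivirus for GFP or for ID1, ID2, ID3 or ID4, with 3 libraries per group and no deletion or drug in any group. The ID proteins are helix-loop-helix inhibitors of differentiation, and the labels call the 4 groups overexpression. QuantSeq libraries, which read the 3′ ends of polyadenylated RNA, had 11089044 to 15148979 counts, and the level of a gene is its share of the library's total, in CPM. The floor taken here, 3 counts, was at 0.198 to 0.271 CPM and covers counting error only. The sources used here do not give the promoter of the vector, the share of cells transduced or whether the 3 libraries of a group came from separate cultures, so errors measure the spread between these libraries only.

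The check of the labels was mixed. Counts of ID4 were 0 to 2 per library in GFP and 2479 to 3110 in those labelled ID4, and ID3 was at 221 ± 8.33 CPM in GFP and 313 ± 11.4 (SD, n = 3) in those labelled ID3, but ID3 was also at 287 ± 27.8 CPM (SD, n = 3) in those labelled ID2, which overlapped with the ID3 label. In contrast, ID1 was at 344 ± 6.96 CPM in GFP and 249.7 ± 3.60 (SD, n = 3) with its own label, and ID2 at 85.7 ± 2.81 and 44.9 ± 1.28 (SD, n = 3). Groups are therefore named by their labels throughout, and whether a vector transcript would be counted by 3′ reads was not tested. Among the glioma markers, VIM and CD44 were abundant and NES was detected, but GFAP, SOX2 and S100B had at most 4 counts per library and OLIG2 at most 11. Of the markers of other cells, PTPRC, PECAM1, EPCAM and CDH1 had at most 15 counts per library.

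In the integrated stress response, kinases that sense amino acid shortage, unfolded protein, heme shortage or viral RNA phosphorylate the translation factor eIF2. General translation then slows, while ATF4 mRNA is translated better, and the ATF4 protein, paired with C/EBP factors, switches on genes for amino acid supply and redox balance. DDIT3, TRIB3 and PPP1R15A belong to the later branch that ends the response or leads to cell death, and in gliomas the pathway is studied as a way in which tumor cells cope with poor nutrient supply. Since ATF4 is controlled largely by translation, its mRNA level is only a part of its activity, and no protein was measured in these libraries.

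ATF4 acts at C/EBP-ATF response elements, composite sites that were searched in RefSeq promoter windows of the GRCh38.p14 build, from 250 bases before to 50 bases after an annotated start, on both strands. The letters searched were TGATGNAAN. These letters were in 3.61% of all 35116 windows, and in windows of 4.45% of the 27305 genes with an entry. Of the 9 regulators with an entry, which had 17 windows, ATF3 and CHAC1 held a match. Of 26 genes of a list of ATF4 target genes with an entry, 10 held one. The 4 windows below are shown because they carry the matches of both regulators, the match of the target gene ASNS, and the window of DDIT4, which had no match. Capitals mark the matched letters. The windows are CHAC1 at chr15:40953221-40953520 on the plus strand, ATF3 at chr1:212565157-212565456 on the plus strand, ASNS at chr7:97872359-97872658 on the minus strand, and DDIT4 at chr10:72273674-72273973 on the plus strand.
CHAC1: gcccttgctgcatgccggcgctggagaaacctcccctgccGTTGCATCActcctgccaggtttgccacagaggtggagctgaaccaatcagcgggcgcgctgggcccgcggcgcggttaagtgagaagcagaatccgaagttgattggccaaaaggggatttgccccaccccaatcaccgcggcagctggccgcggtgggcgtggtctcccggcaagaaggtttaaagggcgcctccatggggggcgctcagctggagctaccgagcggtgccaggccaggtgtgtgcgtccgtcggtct
ATF3: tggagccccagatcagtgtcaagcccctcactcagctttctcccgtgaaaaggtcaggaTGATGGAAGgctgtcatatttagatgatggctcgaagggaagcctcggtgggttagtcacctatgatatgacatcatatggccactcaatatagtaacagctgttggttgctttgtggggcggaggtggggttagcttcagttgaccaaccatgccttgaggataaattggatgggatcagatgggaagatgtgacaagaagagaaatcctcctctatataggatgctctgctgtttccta
ASNS: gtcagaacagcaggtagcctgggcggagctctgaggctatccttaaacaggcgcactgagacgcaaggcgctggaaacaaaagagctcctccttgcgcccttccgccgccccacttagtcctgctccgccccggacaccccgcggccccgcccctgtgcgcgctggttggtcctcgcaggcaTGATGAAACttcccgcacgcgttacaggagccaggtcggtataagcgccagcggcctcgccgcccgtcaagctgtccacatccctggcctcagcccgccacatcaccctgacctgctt
DDIT4: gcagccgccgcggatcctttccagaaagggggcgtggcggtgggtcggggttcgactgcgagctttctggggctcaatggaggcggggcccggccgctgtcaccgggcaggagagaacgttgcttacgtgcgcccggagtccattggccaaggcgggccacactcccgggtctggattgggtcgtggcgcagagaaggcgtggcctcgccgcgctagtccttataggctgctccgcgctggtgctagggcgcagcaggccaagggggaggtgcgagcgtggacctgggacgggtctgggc
Counted from the start, the match in CHAC1 lay at -210 to -202 on the reverse strand, that in ATF3 at -191 to -183 and that in ASNS at -68 to -60. The cyclic AMP response element, TGACGTCA, was in 1.85% of all windows and in none of the 17. A match of letters is not evidence of binding, and no binding was measured here.

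Across the 15 libraries, 7 of the 10 regulators were lower in all 12 ID-labelled libraries than in any GFP library: ATF4, DDIT3, NUPR1, TRIB3, CHAC1, DDIT4 and SESN2. Of all tested genes, 6.15% had such a separation. CEBPB was higher in all 12 than in any GFP library, a separation that 8.66% of tested genes had. ATF3 and ATF5 overlapped with GFP, apart from ATF3 in the ID3 group, where 22.8% of tested genes lay wholly above GFP, and ATF5 in the ID4 group, where 19.5% did. Because the genes were chosen with these contrasts known, nothing is read from these counts. The 4 comparisons with GFP share the same 3 control libraries, so they are not independent of each other, and in bulk RNA fewer cells expressing a gene and less RNA per cell cannot be told apart.

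**Figure D1:**
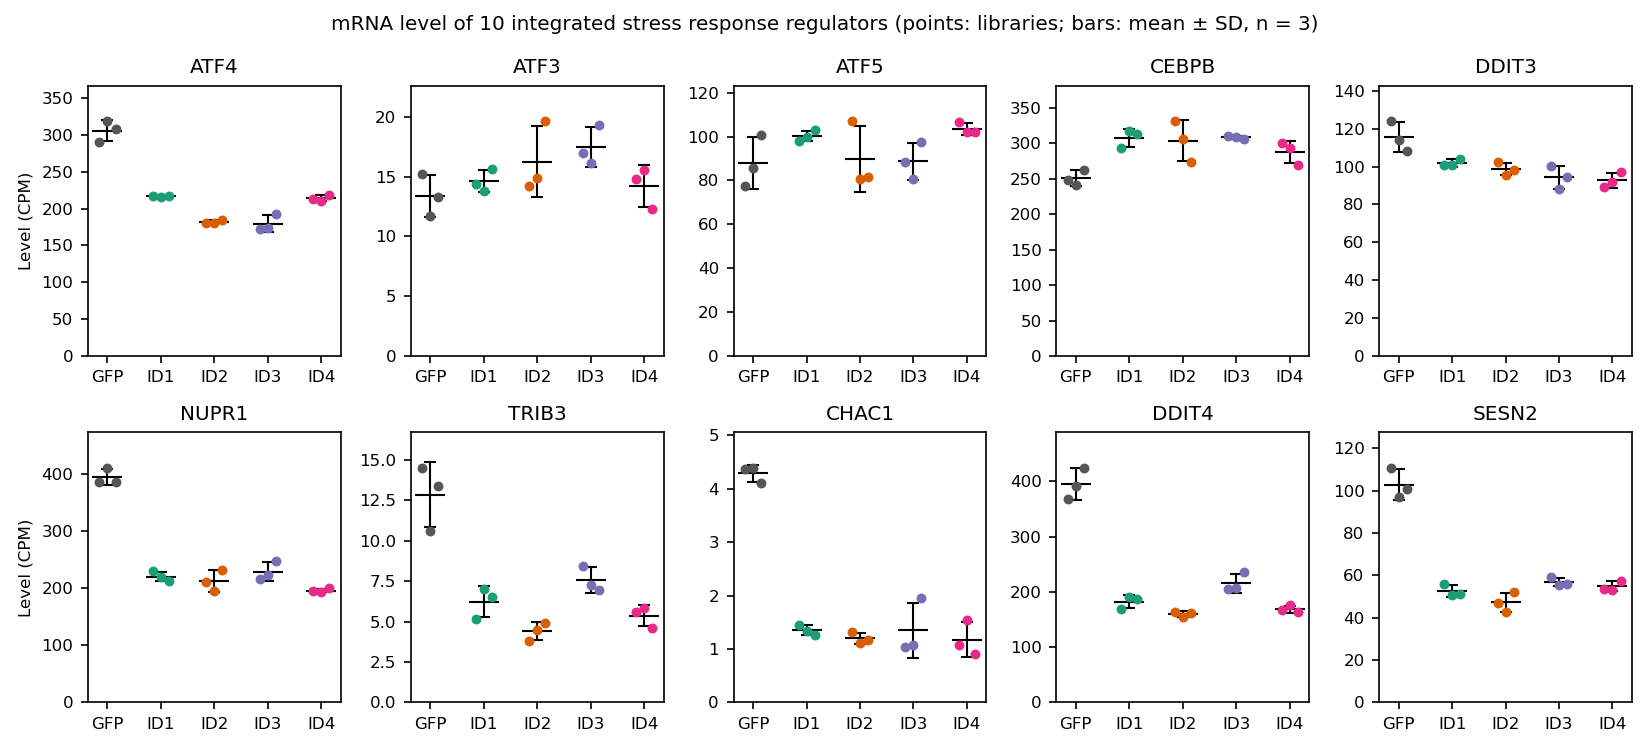
Level in CPM (vertical axes, each from 0) of the 10 regulators by labelled group (horizontal axis), with a point for each library and bars for the mean ± SD of 3 libraries. ATF4, DDIT3, NUPR1, TRIB3, CHAC1, DDIT4 and SESN2 lie below GFP in all 12 ID-labelled libraries, and CEBPB lies above.

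ATF4, the bZIP factor at the center of the response, lies on chromosome 22 from 39915700 to 39918688 (GRCh37). Its level was 291, 319 and 308 CPM in the GFP libraries. It was 218, 216 and 217 CPM with the ID1 label, 181, 181 and 184 with ID2, 173, 174 and 192 with ID3 and 214, 211 and 218 with ID4. No ID-labelled library came near the lowest GFP library, and the ID groups fell into pairs, with ID1 and ID4 overlapping each other and lying above ID2 and ID3, which also overlapped each other. The log2 fold changes against GFP were -0.51, -0.73, -0.79 and -0.52 for ID1 to ID4 (standard error 0.05 each), which is a level 1.43-, 1.66-, 1.73- and 1.43-fold lower. Its libraries with the ID1 label had a coefficient of variation of 0.296%, the smallest of any group and regulator, which over 3 libraries says little about the true spread.

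The transcription factors ATF3 and ATF5 did not share this shift. ATF3, a bZIP factor induced early in many kinds of stress, ranged from 11.7 to 15.2 CPM in the GFP libraries and from 12.3 to 19.7 in the ID-labelled ones. Against GFP it differed by 0.11, 0.29, 0.36 and 0.08 on the log2 scale (standard errors 0.13 to 0.14), and only the ID3 group lay wholly above GFP. ATF5, a bZIP factor whose translation is controlled like that of ATF4 and which serves in the mitochondrial stress response, was at 88.1 ± 11.8 CPM in GFP and 104 ± 2.70 (SD, n = 3) with the ID4 label. Its log2 fold changes were 0.17, 0.04, -0.01 and 0.23 (standard error 0.10 each). The 3′ end of ATF5, on chromosome 19 from 50431959 to 50437192, is overlapped by an annotated gene on the opposite strand, and the strand setting of the counting was not given in the sources used here, so its reads cannot be told apart from those of that gene.

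CEBPB, a C/EBP factor that pairs with ATF4 and also acts in inflammation and mesenchymal glioma, was the regulator whose libraries lay wholly above GFP in every ID group. It was at 248, 242 and 263 CPM in GFP. It was 294, 318 and 313 CPM with the ID1 label, 331, 306 and 274 with ID2, 310.4, 309.8 and 307 with ID3 and 300.2, 294 and 269.8 with ID4. The highest GFP library was below the lowest ID-labelled library, and each ID group overlapped with the next in the order ID3, ID1, ID2 and ID4. Relative to GFP, CEBPB stood at 0.28, 0.29, 0.28 and 0.20 on the log2 scale (standard error 0.06 each). CEBPB, on chromosome 20 from 48807367 to 48809205, overlaps the antisense gene CEBPB-AS1, but not at the 3′ end of CEBPB. Whether reads of CEBPB-AS1 were counted for CEBPB was not tested.

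DDIT3 encodes CHOP, the bZIP factor that promotes cell death in prolonged stress, and had the smallest shifts of the 7 regulators that lay below GFP. It was at 124, 114 and 108 CPM in GFP and ranged from 88.4 to 104 CPM in the ID-labelled libraries. The lowest GFP library and the highest ID-labelled library were thus only a few CPM apart. On the log2 scale the differences from GFP were -0.20, -0.21, -0.31 and -0.32 (standard error 0.06 each). On chromosome 12 from 57910371 to 57915520, the 3′ end of DDIT3 overlaps the methionyl-tRNA synthetase gene, listed as MARS, on the opposite strand. MARS itself had log2 fold changes of -0.30, -0.39, -0.50 and -0.43, and how far reads were shared between these genes was not tested.

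NUPR1, a small stress-induced chromatin protein, lies on chromosome 16 from 28544029 to 28550329. It was at 386, 411 and 387 CPM in GFP. It was 229, 219 and 213 CPM with the ID1 label, 210.0, 194 and 232 with ID2, 216, 224 and 247 with ID3 and 195, 193 and 199.8 with ID4. The ID-labelled libraries lay far below GFP, and ID4 lay wholly below ID1 and ID3, and the other pairs of ID groups overlapped. The log2 fold changes were -0.86, -0.88, -0.80 and -1.01 (standard error 0.07 each).

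**Figure D2:**
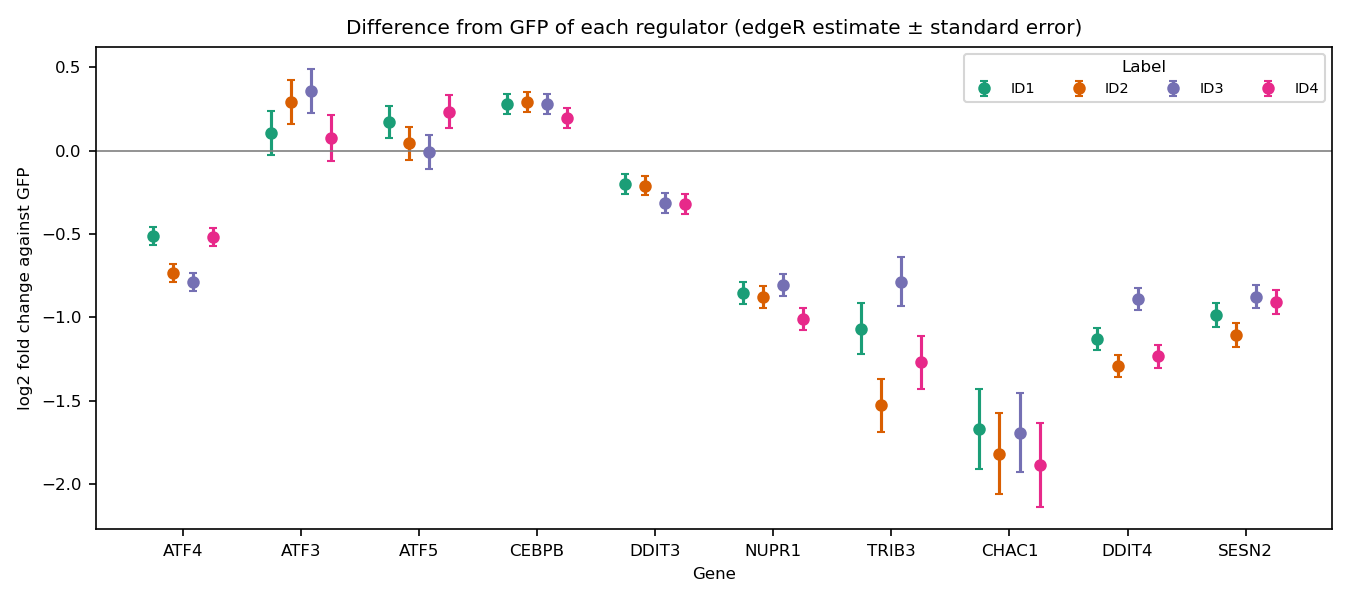
Difference from GFP (vertical axis, log2 fold change with its standard error as bars) of each regulator (horizontal axis) in the 4 ID-labelled groups, all set against the same 3 GFP libraries. CHAC1 has the values farthest below 0, at -1.67 to -1.89, whereas ATF3, ATF5 and CEBPB are near or above 0.

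The feedback and effector genes were lower by more than ATF4 itself in most groups. TRIB3 encodes a pseudokinase that binds ATF4 and restrains it, and it lies on chromosome 20 from 343479 to 378203. Its level was 14.5, 10.6 and 13.4 CPM in GFP. It was 5.15, 7.03 and 6.49 CPM with the ID1 label, 3.79, 4.50 and 4.91 with ID2, 8.46, 7.26 and 6.96 with ID3 and 5.60, 5.86 and 4.62 with ID4. The ID2 group lay wholly below ID1 and ID3, the ID3 group lay wholly above ID2 and ID4, and other pairs of ID groups overlapped. Its differences from GFP were -1.07, -1.53, -0.79 and -1.27 on the log2 scale (standard errors 0.15 to 0.16).

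DDIT4 encodes REDD1, an inhibitor of the growth kinase complex mTORC1 that also responds to hypoxia and glucocorticoids. On chromosome 10 from 74033678 to 74035794, it was at 368, 392 and 424 CPM in GFP. It was 169.7, 190.2 and 188 CPM with the ID1 label, 164, 154 and 161 with ID2, 205, 207 and 236 with ID3 and 166, 175 and 163 with ID4. The ID3 libraries were the highest of the ID-labelled ones and did not overlap with any other group, whereas ID1 overlapped with ID4 and ID4 with ID2. The log2 fold changes were -1.13, -1.29, -0.89 and -1.23 (standard error 0.07 each), a level 2.19-, 2.45-, 1.86- and 2.35-fold lower.

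SESN2, a leucine-sensing inhibitor of mTORC1 that also protects against oxidants, lies on chromosome 1 from 28586029 to 28609002. It was at 111, 97.0 and 101 CPM in GFP. It was 55.7, 50.6 and 51.2 CPM with the ID1 label, 46.7, 42.9 and 52.1 with ID2, 59.2, 55.6 and 55.9 with ID3 and 53.8, 53.2 and 57.5 with ID4. Every ID-labelled library was far below GFP, and the ID2 group lay wholly below ID3 and ID4. For SESN2 the log2 fold changes against GFP were -0.98, -1.11, -0.87 and -0.91 (standard error 0.07 each).

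CHAC1 encodes an enzyme that breaks down glutathione, and its log2 fold change was the largest of the 10. It lies on chromosome 15 from 41245160 to 41248710, and it was at 4.37, 4.39 and 4.10 CPM in GFP, from 49 to 62 counts per library. It was 1.45, 1.34 and 1.27 CPM with the ID1 label, 1.31, 1.11 and 1.18 with ID2, 1.04, 1.07 and 1.95 with ID3 and 1.07, 1.53 and 0.908 with ID4, from 12 to 26 counts per library. All ID groups overlapped with each other, and the third ID3 library was the highest among them. The log2 fold changes were -1.67, -1.82, -1.69 and -1.89 (standard errors 0.24 to 0.25), a level 3.18-, 3.52-, 3.23- and 3.69-fold lower. With single libraries left out, the difference of ID3 ranged from -2.04 to -1.53 and that of ID4 from -2.10 to -1.73.

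At an adjusted p under 0.05 in edgeR, 1 regulator was called higher and 7 lower with the ID1 label, where 22.1% of all tested genes were called (12.4% higher and 9.73% lower). With the ID2 label these were 1 higher and 7 lower, where 35.1% of tested genes were called (18.5% higher and 16.7% lower). With ID3 they were 2 higher, ATF3 and CEBPB, and 7 lower, where 28.6% were called (15.1% higher and 13.5% lower). With ID4 they were 1 higher and 7 lower, where 21.6% were called (12.1% higher and 9.51% lower). The median log2 fold change of the 10 was -0.68, -0.80, -0.79 and -0.71 for ID1 to ID4, and that of all tested genes was within 0.01 of 0. The call of ATF3 with ID3 was lost without GFP 2, GFP 3, ID3 1 or ID3 3, that of CEBPB with ID4 without GFP 1, GFP 2, ID4 1 or ID4 2, and that of DDIT3 with ID1 without GFP 1, ID1 1 or ID1 2. ATF3 gained a call with ID2 without ID2 1, and ATF5 with ID4 without GFP 3. These counts and the calls lost or gained restate the choice of the genes, are no test of them and are given for scale.

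The place of the ID3 group among the ID groups was not the same for ATF4 as for DDIT4 and TRIB3. Of all tested genes, 33.7% had no overlap in CPM between ID1 and ID2, 30.6% between ID1 and ID3, 25.5% between ID1 and ID4, 28.9% between ID2 and ID3, 33.2% between ID2 and ID4 and 30.3% between ID3 and ID4, so such a separation of ID groups is common. ATF4 was lowest in ID2 and ID3, whereas DDIT4 and TRIB3 had their highest mean, among the ID groups, in ID3. TRIB3 in ID3 overlapped with ID1, however. Both DDIT4 and TRIB3 had their lowest mean in ID2, where ATF4 was also low, and CHAC1 overlapped between all ID groups. Over the 12 ID-labelled libraries, Pearson's r of log2(CPM + 1) was -0.20 between ATF4 and DDIT4, -0.10 between ATF4 and TRIB3 and -0.22 between ATF4 and NUPR1, and 0.17, 0.16 and 0.13 between ATF4 and SESN2, CHAC1 and DDIT3. In the same libraries it was 0.83 between TRIB3 and DDIT4, 0.61 between NUPR1 and DDIT4 and 0.70 between ATF4 and ATF5. After removal of the group means over all 15 libraries, GFP included, r was 0.56 for ATF4 with DDIT4, 0.68 with NUPR1 and -0.55 with TRIB3, and 0.09 for TRIB3 with DDIT4, 0.27 for NUPR1 with DDIT4 and 0.40 for ATF4 with ATF5, so the values of ATF4 with DDIT4 and NUPR1 turned sign. These coefficients describe 12 libraries in 4 groups with 1 cell line and protocol, and the 3 libraries of a group are not independent of their group. GFP was left out of the values over 12 libraries since its libraries form a cluster of their own for most of these genes.

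**Figure D3:**
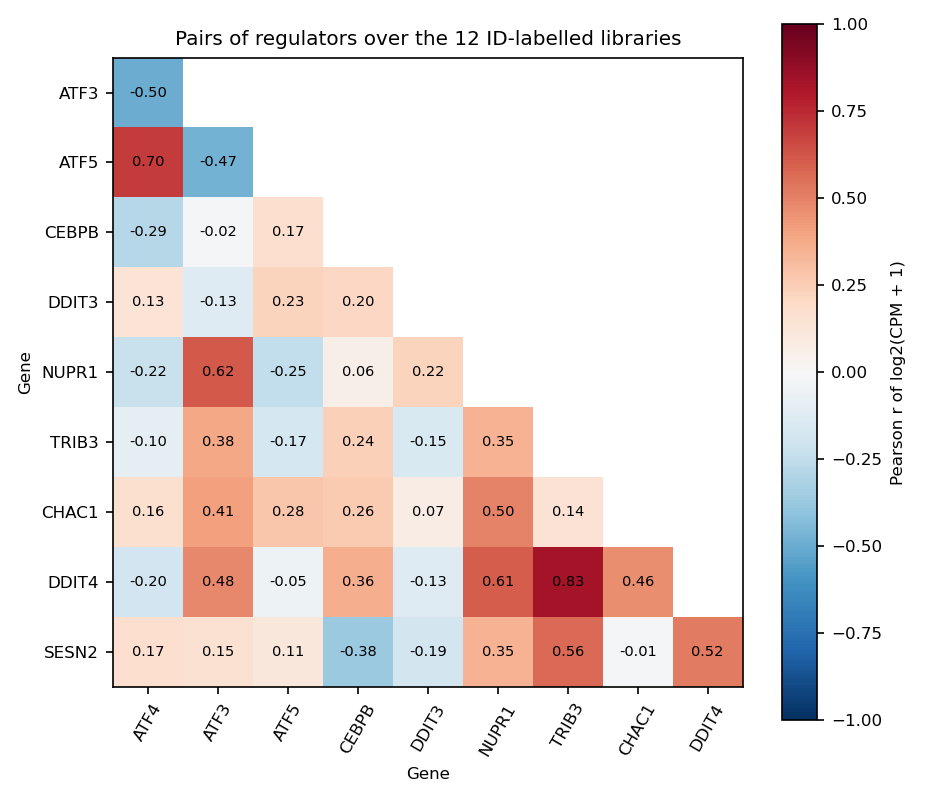
Pearson's r of log2(CPM + 1) for each pair of regulators (rows and columns) over the 12 ID-labelled libraries, with color from -1 to 1. TRIB3 and DDIT4 stand at 0.83, and ATF4 is at -0.20 with DDIT4 and -0.10 with TRIB3.

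Some regulators lie in chromosomal regions whose other genes were shifted. The 50 tested genes nearest to CHAC1 had median log2 fold changes of 0.34, 0.22, 0.31 and 0.37 for ID1 to ID4, opposite in sign to those of CHAC1, and all 387 tested genes of chromosome 15 had medians of 0.34, 0.26, 0.33 and 0.37. Around DDIT3 on chromosome 12 the medians were 0.20, 0.20, 0.19 and 0.26, also opposite in sign to DDIT3. The 634 other tested genes of that chromosome had medians of 0.174, 0.196, 0.145 and 0.187. Around DDIT4 on chromosome 10 the medians were -0.19, -0.21, -0.05 and -0.12, the same sign as DDIT4 but far smaller. The 462 other tested genes of chromosome 10 had medians of -0.141, -0.157, -0.085 and -0.102. For the other 7 regulators, the medians of the neighbouring genes lay between -0.15 and 0.10. ATF4, NUPR1, TRIB3, CHAC1, DDIT4 and SESN2 lay below the 10th percentile of their neighbours in each of the 4 comparisons, and ATF3, ATF5 and CEBPB lay between the 10th and the 90th percentile. DDIT3 lay below the 10th percentile only for ID3 and ID4. The part of these regional and chromosome-wide shifts in the values of the regulators was not tested.

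**Figure D4:**
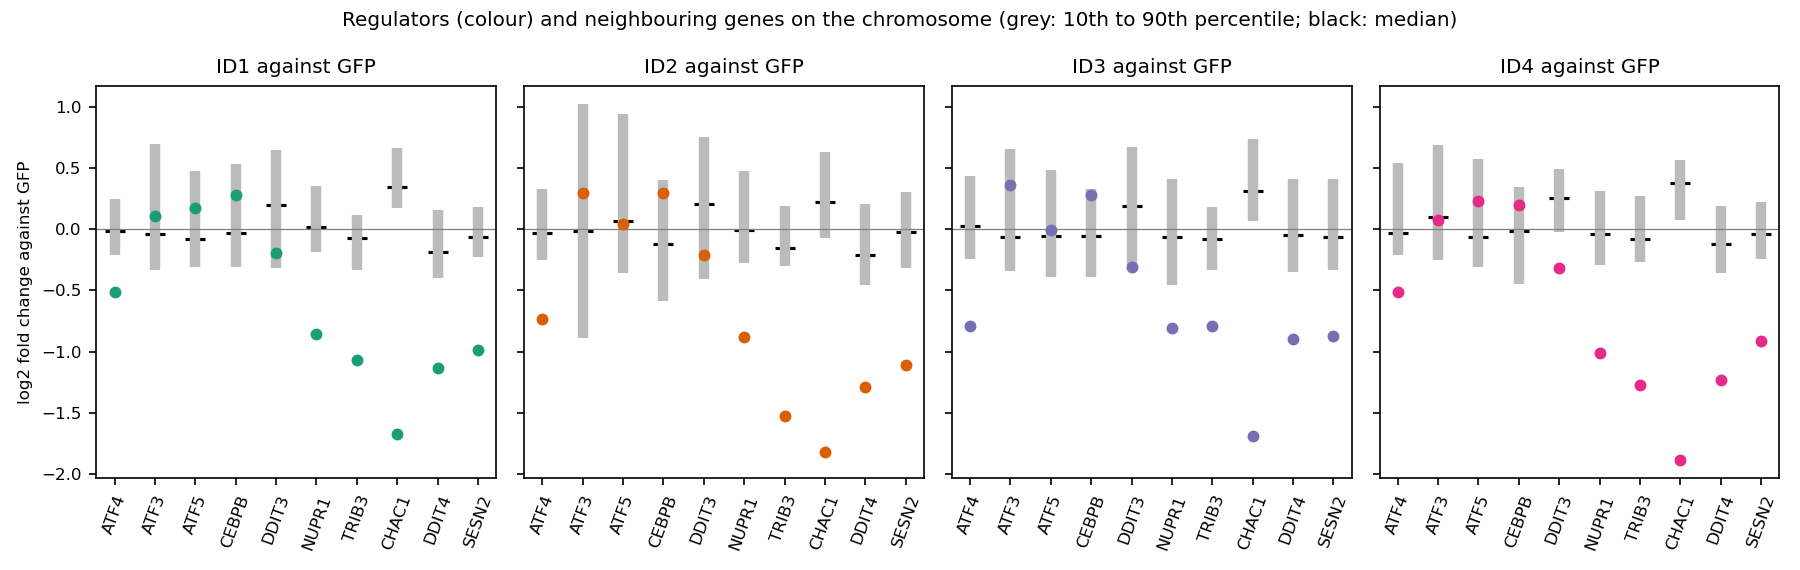
Log2 fold change against GFP (vertical axes) of each regulator (colored points) and of its nearest tested genes on the same chromosome (black lines, median, and grey bars, 10th to 90th percentile, of 50 genes, or 29 for TRIB3). The neighbours of CHAC1 have medians of 0.22 to 0.37 while CHAC1 itself is at -1.67 to -1.89.

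Further genes of the pathway were counted from lists that were also put together with earlier results of these data known, those of ASNS and SLC7A5 among them. Adjusted p-values were taken over all 12870 tested genes. The counts of called genes in these lists, here and below, are given for scale and are no test of the lists. Of 35 ATF4 target genes, 34 were tested, and 25, 27, 26 and 27 fell with the ID1, ID2, ID3 and ID4 labels, while 1, 3, 2 and 1 rose. This is 76.5%, 88.2%, 82.4% and 82.4% of the list called, beside 22.1%, 35.1%, 28.6% and 21.6% of all tested genes. The median log2 fold change of the list was -0.63, -0.65, -0.67 and -0.66.

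SLC7A5, ASNS and PSAT1 had the largest mean absolute changes of the called target genes, so their p-values are no independent test. SLC7A5, the light chain of a leucine transporter, fell most. It was at 30.6, 32.6 and 31.8 CPM in GFP and at 2.92, 2.15 and 2.91 with the ID2 label, which is -3.56 ± 0.14 (SE) on the log2 scale (edgeR adjusted p = 1.84e-14). With ID1, ID3 and ID4 it fell by 2.44, 2.35 and 2.71 on the log2 scale. ASNS, the enzyme that makes asparagine and the carrier of the match shown above, fell from 152, 160.5 and 166 CPM in GFP to 39.4, 42.3 and 41.3 with the ID1 label, which is -1.97 ± 0.06 (SE) on the log2 scale (edgeR adjusted p = 9.87e-16). Its log2 fold changes were -2.26, -2.22 and -2.03 with ID2, ID3 and ID4. PSAT1, an enzyme of serine synthesis, had log2 fold changes of -1.61, -2.09, -1.67 and -1.67, with adjusted p-values from edgeR of 1.4e-12 or less. Against the direction of the list, GDF15, a secreted stress cytokine chosen here after its values were seen, rose by 0.45, 0.39, 0.60 and 0.69 on the log2 scale (adjusted p = 0.00646, 0.0103, 0.000369 and 0.000115 from edgeR).

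Upstream of ATF4, changes went both ways, and except for OMA1 with ID3, described below, differences from GFP were between -0.55 and 0.45 on the log2 scale. Of 19 genes for eIF2 kinases, eIF2 and eIF2B subunits and their regulators, 7, 5, 7 and 4 fell and 2, 2, 4 and 2 rose with ID1 to ID4, or 47.4%, 36.8%, 57.9% and 31.6% called beside 22.1%, 35.1%, 28.6% and 21.6% of all tested genes, so that the share with ID2 was near that of all genes, and the medians were -0.05, -0.02, -0.09 and -0.04. Without GFP 1, GFP 2 or the second ID1 library, the 9 calls with ID1 became 5, and without GFP 1 the 11 calls with ID3 became 7. With ID2, the 7 calls became 6 without GFP 1 or ID2 2. Without GFP 3 they became 10, where 3928 of the 12870 tested genes were called. EIF2S2, the beta subunit of eIF2, fell with every label, by 0.47, 0.55, 0.47 and 0.42 on the log2 scale (adjusted p from edgeR 1.49e-06 or less).

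Among the eIF2 kinases, EIF2AK4, the amino acid sensor GCN2, rose with the ID1, ID3 and ID4 labels, by 0.38, 0.33 and 0.45 (adjusted p = 0.000462, 0.00135 and 7.97e-05 from edgeR), and had a log2 fold change of 0.18 with ID2 (adjusted p = 0.0502), which passed without GFP 2 or ID2 1. EIF2AK1, the heme-regulated kinase, had log2 fold changes of -0.14, -0.10, -0.15 and -0.14, of which those of ID1, ID3 and ID4 passed with adjusted p = 0.0449, 0.024 and 0.0485 from edgeR, and leaving out any single library of either group ended the call for ID1 and for ID4. For ID3 the call of EIF2AK1 was lost without GFP 1, GFP 3, ID3 1 or ID3 3, and the difference with ID2 passed without ID2 3. EIF2AK2, the kinase that senses double-stranded RNA, fell with ID2 and ID3, by 0.26 and 0.33, but not past the threshold without GFP 2 (adjusted p = 0.239 and 0.102 from edgeR), nor without ID2 2 or ID2 3, or ID3 3, respectively. Its log2 fold change of -0.24 with ID4 passed without GFP 3. EIF2AK3, the endoplasmic reticulum kinase PERK, passed with ID3 alone, at 0.22 (adjusted p = 0.0354 from edgeR), and this call was lost without any of the 3 GFP libraries, ID3 1 or ID3 2.

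PPP1R15A and PPP1R15B, which direct the phosphatase that resets eIF2, were both lower. PPP1R15B fell by 0.37, 0.39, 0.35 and 0.36 on the log2 scale with ID1 to ID4 (adjusted p from edgeR 0.00606 or less). PPP1R15A, itself a target of ATF4, fell by 0.45, 0.27 and 0.39 with ID2, ID3 and ID4 (adjusted p from edgeR 0.00125 or less), and by 0.16 with ID1, where adjusted p = 0.0461 from edgeR became 0.0626 to 0.156 without GFP 1, GFP 2, GFP 3, ID1 2 or ID1 3. OMA1, a mitochondrial protease that relays stress to eIF2 kinases, was at 3.87, 3.65 and 5.94 CPM in GFP and 22.5, 20.9 and 26.3 with the ID3 label. OMA1 rose with ID3 by 2.36 ± 0.18 (SE) on the log2 scale (edgeR adjusted p = 2.46e-09), and the ID3 group also differed from the ID1 group (log2 difference of ID1 against ID3 -2.16, adjusted p = 4.04e-08 from edgeR), as did 9.18% of all tested genes. With ID2, OMA1 had a log2 fold change of 0.38 that passed without GFP 3 or ID2 3.

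**Figure D5:**
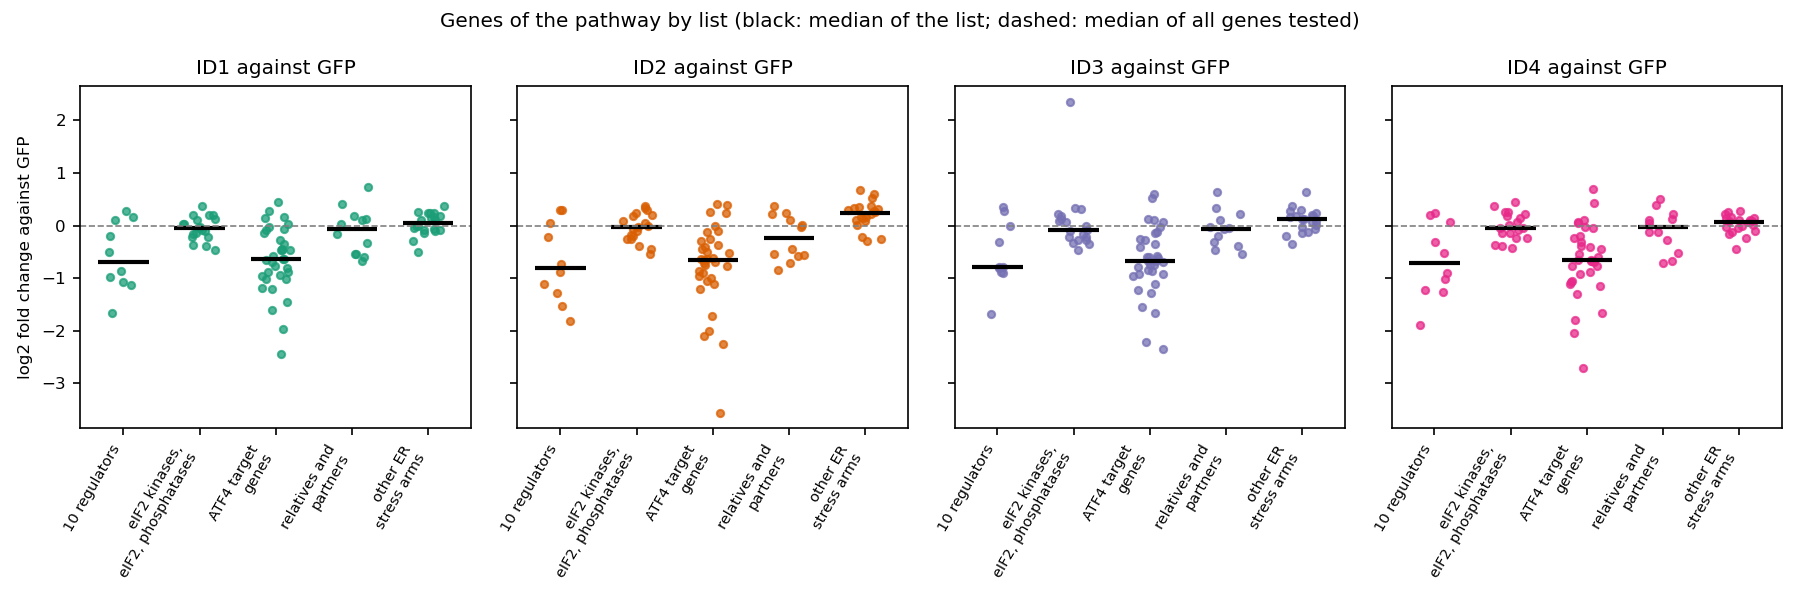
Log2 fold change against GFP (vertical axes) of each tested gene (points) by list (horizontal axis), with the median of the list in black and that of all tested genes as a dashed line. The 34 ATF4 target genes have medians of -0.63 to -0.67, whereas the 19 upstream genes have medians of -0.02 to -0.09.

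The nearest relatives of the regulators did not all move with them. Of 17 relatives and partners, 12 were tested, and 4, 6, 5 and 4 fell and 2, 1, 1 and 2 rose with ID1 to ID4 (50%, 58.3%, 50% and 50% of those tested called, beside 22.1%, 35.1%, 28.6% and 21.6% of all tested genes). CEBPG, a C/EBP factor that pairs with ATF4, fell by 0.55, 0.71, 0.54 and 0.71 on the log2 scale (adjusted p from edgeR 0.000549 or less). CEBPD fell by 0.55, 0.55, 0.39 and 0.67, and its call with ID3 (adjusted p = 0.0148 from edgeR) was lost without GFP 1 (adjusted p = 0.0687). Thus CEBPG and CEBPD went below GFP where CEBPB was above it, and CEBPA had 0 or 1 counts in every library.

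Of the pseudokinases related to TRIB3, TRIB2 fell by 0.68, 0.55, 0.20 and 0.28 (adjusted p from edgeR 0.0158 or less), although the call with ID3 was lost without GFP 2 or ID3 3. TRIB1 rose with ID1, ID3 and ID4, by 0.74, 0.64 and 0.51 (adjusted p = 0.000251, 0.000882 and 0.00901 from edgeR), with the ID4 call lost without ID4 2, and had a log2 fold change of 0.22 with ID2 (adjusted p = 0.221). SESN1, the relative of SESN2 controlled by p53, had log2 fold changes of 0.12, 0.23, 0.33 and 0.12, and CHAC2, the relative of CHAC1, of -0.16, -0.04, -0.04 and 0.04, none past the threshold, the smallest adjusted p from edgeR being 0.138. For SESN1, the difference with ID2 passed without ID2 3 (adjusted p = 0.023 from edgeR). SESN3 and DDIT4L had at most 16 and 11 counts per library and were not tested.

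The other arms of the endoplasmic reticulum stress response, those of ATF6 and XBP1, had 20 of 21 listed genes tested. Of these, 4, 11, 7 and 4 rose and 2, 3, 2 and 2 fell with ID1 to ID4, or 30%, 70%, 45% and 30% called beside 22.1%, 35.1%, 28.6% and 21.6% of all tested genes, and the medians were 0.05, 0.24, 0.13 and 0.08. Without GFP 2, the total calls were 3, 5 and 3 for ID1, ID3 and ID4 in place of 6, 9 and 6. PDIA4, a folding enzyme, rose by 0.24, 0.59, 0.24 and 0.28 (adjusted p from edgeR 0.0103 or less), and its calls with ID1 and ID3 were lost without GFP 2. XBP1, the spliced transcription factor of its arm, fell by 0.50, 0.22, 0.36 and 0.44, and its call with ID2 (adjusted p = 0.0328 from edgeR) was lost without GFP 1, GFP 2 or ID2 1. DNAJB9, a chaperone cofactor, rose with ID3 by 0.64 (adjusted p = 0.00103 from edgeR) and had log2 fold changes of 0.38, 0.25 and 0.11 with ID1, ID2 and ID4 that did not pass. The call was gained for ID1 without GFP 1 (adjusted p = 0.0384 from edgeR) and for ID2 without ID2 3 (adjusted p = 0.0475).

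For each regulator, the tested genes most like it were those with the highest Pearson's r of log2(CPM + 1) over the 15 libraries. Since GFP stands apart for most regulators, these coefficients largely hold the difference between GFP and the other groups, and the r after removal of the group means is given beside them. For ATF4 the 5 genes were UPF3B, TFAP2C, DDX10, ALDH1A3 and COX20, from 0.96 to 0.95, or from 0.65 for UPF3B to -0.17 for ALDH1A3 after removal of the means. For TRIB3 they were DANCR, SLC3A2, PIH1D1, RELA and PHC2, from 0.95 to 0.93. SLC3A2, the partner chain of SLC7A5 at the membrane and one of the listed target genes, had an r of 0.95 with TRIB3, and of 0.62 after removal of the means.

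NDRG1, a gene induced by hypoxia and metal shortage, was the most like both NUPR1 and DDIT4, at 0.98 each, or 0.31 and 0.61 after removal of the means. EIF2S2 was the most like SESN2, at 0.98 (0.76), and ASNS the most like CHAC1, at 0.96 (0.45), the values in parentheses being those after removal of the means. The regulator NUPR1, left out of this ranking, was at 0.961 with CHAC1, beside 0.959 for ASNS. STEAP3 was the most like DDIT3, at 0.91 (0.59), and PLAU the most like CEBPB, at 0.92 (0.77). For the regulators that did not separate GFP from the rest, the values were 0.84 (0.77) for ZNHIT1 with ATF3 and 0.86 (0.84) for SRP68 with ATF5.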

How the data were processed

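RNA of U87MG cells was sequenced by a service company as 15 QuantSeq 3′ libraries, 3 for each of 5 labels. For each gene symbol, the authors deposited raw counts without normalization, and log2 values normalized between libraries. The submitters' processing notes name Bowtie2, BWA and hg19 (GRCh37), without versions. The counting tool, its strand setting and the annotation are not given in the sources used here.

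The 10 genes and the gene lists were chosen with earlier results of these data known. The edgeR package (4.0.16, under R 4.3.3) fitted the counts of all 15 libraries with a mean for each group, TMM factors of 0.978 to 1.026 and a common dispersion of 0.00463, and its quasi-likelihood test was two-sided. Benjamini-Hochberg adjustment ran over the 12870 genes in the upper 50% by mean deposited log2 value (3.22 or more), with a threshold of 0.05. CPM used the total counts of a library. No pair of libraries had identical counts, and 5484 genes were at 0 in all libraries. In data simulated for ID1 against GFP on 12870 genes, 73 of 100 changes of 0.5 and 91 of 100 changes of 1 on the log2 scale were found, with 14 false calls. The simulation gave every gene the same dispersion and changed far fewer genes than were called in the data, so its rates need not hold there.

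Alternatives were other filters (filterByExpr, none), RLE size factors, DESeq2 1.42.0, limma 3.58.1 with trend on the deposited log2 values, a fit of only the groups compared, the replicate number as a block, a log2 fold change over 1, and leaving out each library. Genes named besides the 10 were the 3 of each list with the largest mean absolute change among those called, direct relatives, the 4 eIF2 kinases, PPP1R15A, PPP1R15B and the genes most like each regulator. For genes taken by the size of their change, the p-values are no independent test. Positions came from GENCODE lifted to GRCh37, which placed 11746 of the 12870 tested genes, and promoter windows from RefSeq on GRCh38.p14. Figures used matplotlib 3.10.9 in Python 3.11.15.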

Additional observations from a re-analysis of the deposited data

Results flagged for a closer look

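In 12 of the pathway genes named in the report besides the 10 regulators, a difference between ID-labelled groups passed the test of that difference itself in the fit over all libraries (edgeR's quasi-likelihood test, adjusted over all tested genes). Listed genes that the report does not name are not counted here. Some of the genes were named for large changes from GFP, and the share of all tested genes passing in any pair was not computed. The count of 12 thus has no background to set it against. Each value is the log2 difference of the first group against the second, for the pair of groups with the smallest adjusted p, a choice that the adjustment does not allow for. Upstream of ATF4 these were OMA1 at -2.16 for ID1 against ID3 (adjusted p = 4.04e-08 from edgeR), EIF2AK4 at -0.26 for ID2 against ID4 (adjusted p = 0.0113), EIF2AK2 at 0.31 for ID1 against ID3 (adjusted p = 0.0424) and PPP1R15A at 0.29 for ID1 against ID2 (adjusted p = 0.00141).

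Among the target genes, SLC7A5 was at -1.21 for ID2 against ID3 (adjusted p = 3.26e-05 from edgeR). ASNS was at 0.29 (adjusted p = 0.00469) and PSAT1 at 0.48 (adjusted p = 0.000492) for ID1 against ID2. Among relatives, TRIB2 was at -0.47 for ID1 against ID3 (adjusted p = 4.25e-05 from edgeR) and TRIB1 at 0.51 for ID1 against ID2 (adjusted p = 0.00659). In the other arms, XBP1 was at -0.29 (adjusted p = 0.0124 from edgeR) and PDIA4 at -0.36 (adjusted p = 0.000477) for ID1 against ID2, and DNAJB9 was at 0.53 for ID3 against ID4 (adjusted p = 0.013). Of the 12870 tested genes, 2398 differed between ID1 and ID2, 1181 between ID1 and ID3, 1935 between ID2 and ID3, 2394 between ID2 and ID4 and 1450 between ID3 and ID4.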

How the results depend on the processing

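Of 520 values of the 10 regulators under the alternatives, 512 kept within the spread between libraries and 8 moved further, all of CHAC1. That spread was the SD of log2(CPM + 1), in which the added 1 narrows the spread of genes with few CPM, such as CHAC1. Whether the 8 values would also exceed a spread without the added 1 was not tested. With a log2 fold change over 1 required, which removes small changes by construction, the called regulators were 3, 4, 1 and 4 for ID1 to ID4 against GFP. All tested genes called were then 384, 569, 376 and 323 against GFP, and 155, 64, 72, 151, 214 and 105 for ID1 with ID2, ID3 and ID4, ID2 with ID3 and ID4, and ID3 with ID4. The ATF4 target genes called were 8, 9, 7 and 9, the upstream genes 0, 0, 1 and 0, and the relatives and the other stress arms 0 for each label. A fit of only the groups compared gave 1064 genes for ID1 against ID4 in place of 627, and 1073 for ID2 against ID3 in place of 1935, and the cause was not tested.

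Leaving out 1 library gave 634 to 1165 genes for ID1 against ID3 (1181 with all), 363 to 423 for ID1 against ID4 and 800 to 1377 for ID3 against ID4 (1450 with all). It gave 5 to 7 upstream genes for ID1, 6 to 10 for ID2 and 7 to 10 for ID3, and 3 to 7, 5 to 9 and 3 to 5 genes of the other stress arms for ID1, ID3 and ID4. Called regulators ranged from 7 to 8, 8 to 9, 8 to 9 and 7 to 9. ATF5 with ID4 also passed with no filter on low counts and in a fit of only the groups compared.

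Of 1040 values of the other named genes, 960 kept direction and call, 54 lost the call, 13 gained it and 13 changed sign, all in differences that did not pass. With 1 library left out, EIF2AK2 with ID1 ranged from -0.079 to 0.084 and SESN1 with ID1 from -0.013 to 0.247, whereas CHAC2 ranged with ID1 from -0.402 to 0.149, with ID2 from -0.281 to 0.268, with ID3 from -0.289 to 0.263 and with ID4 from -0.201 to 0.348. With limma, CHAC2 was at 0.013 for ID2 and 0.031 for ID3. CHAC2 had 14 to 37 counts per library, and the cause of its changes of sign was not tested.

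Libraries of equal number did not deviate together (r from -0.33 to 0.30 across genes), so the numbers were not taken as pairs. With the replicate number as a block, 2713, 4362, 3517 and 2585 genes were called against GFP, and 8, 8, 8 and 8 regulators, and the calls of ATF3 (ID3), EIF2AK1 (ID1 and ID4), PPP1R15A (ID1) and XBP1 (ID2) were not made.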
